A study of Mus musculus with 30 samples.

Results

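The splicing factors and heterogeneous nuclear ribonucleoproteins (hnRNPs) of the mouse were taken here as every probe set of the array whose platform annotation gives exactly 1 gene symbol, where that symbol begins with Hnrnp, is an Srsf gene with a number, is an Sf3a or Sf3b gene with a number, or is Syncrip, Sfpq or Snrnp200. The rule used names only, not measured values, but it was chosen with earlier results of these data known. It found 134 probe sets of 41 genes among 45037 probe sets other than controls. A further 7 probe sets that carry several symbols, a member's among them, were left out. Of the 134, 119 passed the filter on low signal and were tested, among 22519 tested probe sets of 12159 genes, and each of the 41 genes kept at least 1 of them. The 15 that did not pass were 2 probe sets each of Hnrnpab, Sf3a1 and Sf3b2 and 1 each of Hnrnpa1, Hnrnpc, Hnrnpl, Sf3b3, Sf3b5, Sf3b6, Srsf1, Srsf2 and Syncrip. Probe sets of 1 gene share a target, so they are not independent measurements.

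Splicing removes introns from pre-mRNA in the spliceosome, a machine of small nuclear RNAs and proteins that is rebuilt on each intron. The SF3A and SF3B subunits belong to the U2 particle, which recognises the branch point, and Snrnp200 is the helicase of the U5 particle that unwinds U4 from U6. SR proteins (Srsf genes) mostly bind exonic enhancers and favour the use of nearby splice sites, while hnRNPs coat nascent RNA and often oppose them. Many SR protein and hnRNP genes make several transcripts, some with exons that mark the RNA for decay, by which the proteins limit their own amounts. Separate probe sets of such a gene can therefore read different transcripts.

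Brain, kidney and liver RNA of 10 male mice of strain Avy/a, all at day 22, was hybridised to Affymetrix mouse arrays, with 1 array for each of the 30 samples and 10 arrays per tissue. Avy, which arose in C3H/HeJ mice, is a dominant agouti allele carrying a retrotransposon upstream of the coat colour gene. Per the labels the mice come from a colony kept by sib mating with forced heterozygosity for Avy, so every mouse carries the allele and there is no group without it, and they fall into 5 coat classes with 2 mice each, numbered 2 and 1: pseudoagouti, heavily mottled, mottled, slightly mottled and yellow. The arrays of brain, kidney and liver that share a class and a number were read as 1 mouse. The labels do not say what the number marks, and they give no batch, scan date or litter. Each tissue carried its own markers: the summed signal of 4 neuron genes was 33563 to 56160 in brain, that of 6 kidney genes 74453 to 151640 in kidney and that of 5 liver genes 115390 to 176940 in liver. The arrays of a tissue were not alike in their other cells: 3 fat genes summed to 7623.8 to 23730 in kidney, 5 choroid plexus genes to 1007.4 to 32846 in brain, 5 liver genes to 310.5 to 13518 in kidney, and the 2 blood genes on the array to 1825.6 to 11372 in liver. Pairs of arrays of 1 tissue correlated at 0.922 or higher, and no pair held identical values. The p-values of fits on the number or the coat class, with 1 value per mouse, measure the spread between these 10 mice. Tests between tissues, and the F-test across mice, use the spread left once mouse and tissue are fitted, with 1 array per sample. The count of 10 mice limits the precision. In whole tissue, fewer cells of a type and less RNA per cell cannot be told apart.

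Promoters were taken from RefSeq (GRCm38.p6), as the 300 bases around each gene's start, most of them before it, and 50 promoters matched 37 of the 41 genes. The hexamer GGGCGG (the GC box), read on both strands, was in 76% of the 50 member promoters and in 35.7% of the 32841 promoters of the same length; CCAAT was in 48% and 37.4%. TATAAA was in 10% of member promoters and 13.6% of all, GAANNTTC in 14% and 7.86%, and TGACGTCA in 0 of 50 and 1.79%. The median GC content was 65% in member promoters and 52.7% over all, and GGGCGG is itself all G and C. The promoters of the genes that carry the 4 highest ratios of mouse spread to tissue spread, described further on, are shown to let their start regions be compared, 5′ to 3′, with each GGGCGG and CCAAT on either strand in capitals; where a CCAAT overlaps an ATTGG of the other strand the run is longer.
Hnrnpul1, chr7:25754710-25755009, minus strand: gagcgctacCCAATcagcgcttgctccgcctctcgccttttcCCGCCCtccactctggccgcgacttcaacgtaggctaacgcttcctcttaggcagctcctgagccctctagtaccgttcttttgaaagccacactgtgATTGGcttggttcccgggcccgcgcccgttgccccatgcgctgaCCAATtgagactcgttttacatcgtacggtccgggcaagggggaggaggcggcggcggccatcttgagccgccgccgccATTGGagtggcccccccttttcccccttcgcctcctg
Syncrip, chr9:88482348-88482647, minus strand: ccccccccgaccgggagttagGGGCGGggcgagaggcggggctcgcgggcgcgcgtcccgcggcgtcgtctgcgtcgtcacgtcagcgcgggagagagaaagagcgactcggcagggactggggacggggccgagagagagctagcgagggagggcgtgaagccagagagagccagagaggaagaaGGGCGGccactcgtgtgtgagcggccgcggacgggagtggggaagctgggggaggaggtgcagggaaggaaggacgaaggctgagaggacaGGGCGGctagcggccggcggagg
Sf3a3, chr4:124714611-124714910, plus strand: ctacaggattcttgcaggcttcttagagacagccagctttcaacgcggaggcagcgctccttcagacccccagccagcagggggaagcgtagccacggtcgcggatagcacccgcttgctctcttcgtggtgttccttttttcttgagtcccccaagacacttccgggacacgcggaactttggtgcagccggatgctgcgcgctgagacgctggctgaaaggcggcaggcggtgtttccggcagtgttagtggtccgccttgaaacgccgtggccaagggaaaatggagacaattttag
Sfpq, chr4:127021051-127021350, plus strand: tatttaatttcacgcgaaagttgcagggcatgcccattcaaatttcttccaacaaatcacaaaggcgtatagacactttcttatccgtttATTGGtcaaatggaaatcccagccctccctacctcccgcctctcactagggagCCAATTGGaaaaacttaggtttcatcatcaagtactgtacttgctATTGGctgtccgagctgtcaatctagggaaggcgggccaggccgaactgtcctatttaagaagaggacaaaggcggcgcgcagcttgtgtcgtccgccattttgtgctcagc
Hnrnpul1 has 1 GGGCGG and 4 CCAAT, Syncrip 3 GGGCGG and no CCAAT, Sfpq 4 CCAAT and no GGGCGG, and Sf3a3 neither. A match is a run of letters and not a bound site.

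Signals are MAS5 values on a linear scale, and differences are of log2(signal + 16), which understates the change of dim probe sets. A tissue difference was called where limma's moderated test, with mouse as a block and Benjamini-Hochberg adjustment over 22519 probe sets, gave an adjusted p under 0.05 and the difference was at least 1. Most splicing probe sets stayed under that size in every contrast. In brain against liver, 13 of 119 probe sets were higher and 8 lower, where 30.2% and 20.4% of all tested probe sets were called. In brain against kidney 6 were higher and 5 lower (21.9% and 20.7% of all), and with the filter on the mean over all arrays 3 were higher (16% of all). In kidney against liver 2 were higher and 0 lower (18.6% and 9.85% of all), or 1 higher after quantile normalisation or with pseudoagouti mouse 1 or 2 left out. Of the 119 members 5 passed the filter through brain alone, on Hnrnpd 1458273_at, Hnrnpr 1429232_at, Sf3a1 1419087_s_at, Srsf11 1430077_at and Srsf12 1437168_at, and they supplied 4 of the calls higher in brain than in liver and 3 of those against kidney. At least 1 of the 3 contrasts was called for 24 members, or 20.2%, against 61.9% of all. With no minimum size, 45 were higher and 40 lower in brain than in liver, so small differences were common: 37.8% and 33.6% of members, against 46.4% and 38.1% of all. The same counts were 25 and 43 for brain against kidney (38.6% and 40.9% of all) and 46 and 23 for kidney against liver (42.4% and 28.5% of all). The median difference over the 119 was -0.03 for brain minus liver, -0.08 for brain minus kidney and 0.12 for kidney minus liver, against 0.15, -0.03 and 0.13 over all tested probe sets.

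**Figure D1:**
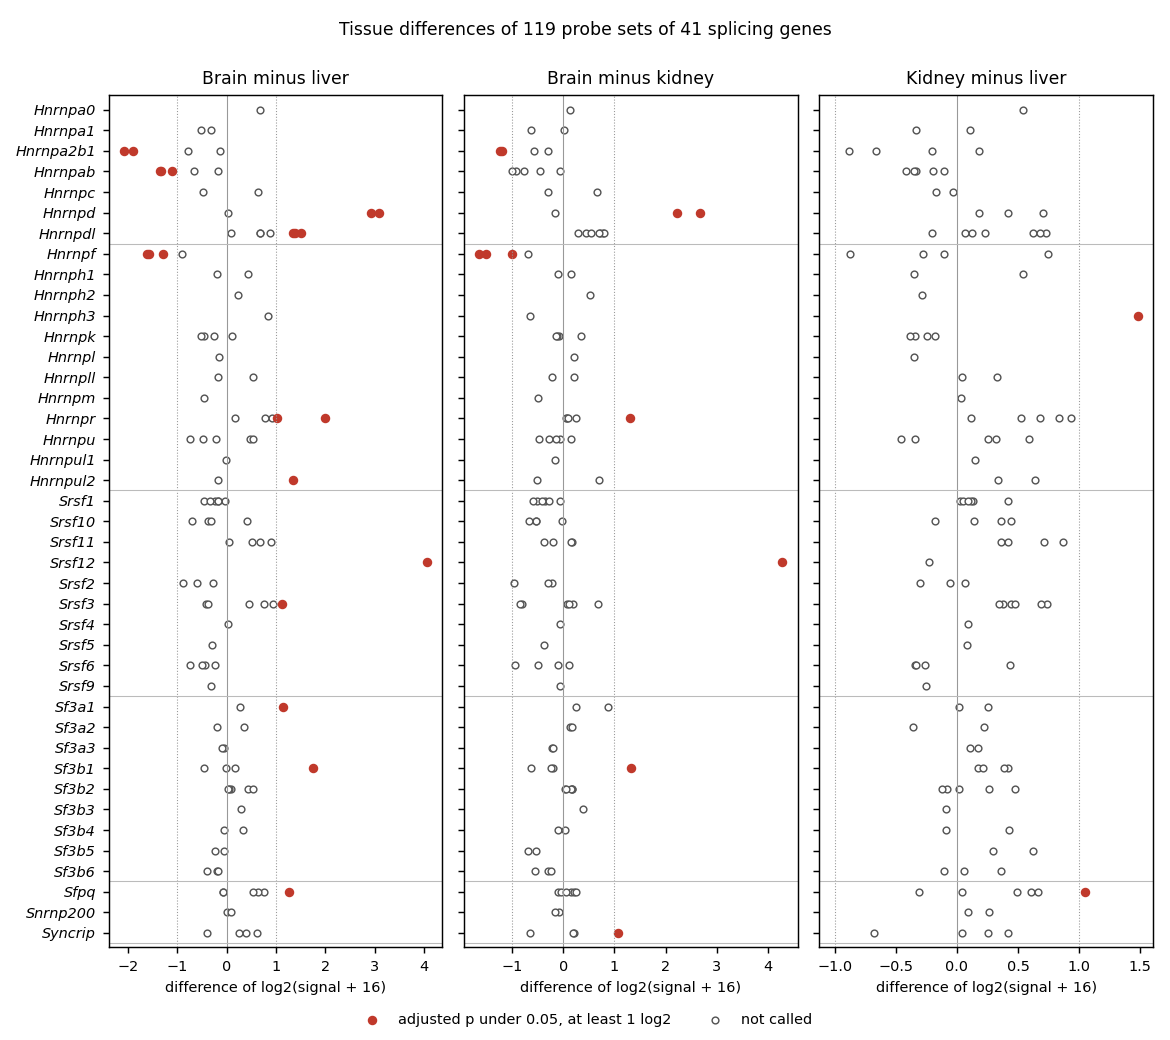
Difference of log2(signal + 16) between tissues for each of the 119 tested probe sets, 1 point per probe set and 1 row per gene, in 3 panels (brain minus liver, brain minus kidney, kidney minus liver). Red points passed an adjusted p of 0.05 with a difference of at least 1 (dotted lines); Srsf12 lies alone at 4.06 and 4.28 in the 2 brain panels, and several genes have 1 red point beside open points near 0.

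The hnRNPs A to D, which package nascent transcripts and bind AU-rich or UAG-containing RNA, held 10 of the 21 brain against liver calls, 5 in each direction among 24 probe sets. Hnrnpd, which encodes the AU-rich element binding protein AUF1, showed the widest split. Its probe set 1457568_at had a signal of 1058.6 to 1643.5 in brain (median 1244.1), against 153.2 to 331.2 in kidney (median 281.1) and 107.6 to 209.3 in liver (median 152.8). No brain value overlapped another tissue, and the difference was 2.93 ± 0.12 (SE) against liver (adjusted p 8.06e-18, limma) and 2.22 ± 0.12 against kidney, with brain higher in 10 of 10 mice. The dimmer 1458273_at passed the filter only through brain, with medians of 317.5 in brain, 42.6 in kidney and 20.1 in liver, the last near the offset of 16, so no fold is drawn from it. The brightest Hnrnpd probe set, 1425142_a_at, had medians of 1838.4 in brain, 2006.1 in kidney and 1773.4 in liver and a brain minus liver difference of 0.03.

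Hnrnpa2b1, an hnRNP known for sorting and transport of RNA as well as splicing, was lower in brain than in liver on 3 of its 4 probe sets, 2 of them by at least 1. Its 1433829_a_at had a signal of 2157.8 to 3328.5 in brain (median 2597.2), against 4780.9 to 6885.5 in kidney (median 6460.8) and 7385.6 to 13004 in liver (median 9929.8). The 3 tissues did not overlap, and brain was 3.72-fold lower than liver (log2 -1.90 ± 0.10, adjusted p 2.08e-15, limma). Its 1434047_x_at had medians of 1811.2 in brain, 4840.4 in kidney and 7952.1 in liver, and was 4.22-fold lower in brain than in liver (log2 -2.08 ± 0.15). The third, 1433830_at, gave -0.77 ± 0.10 (adjusted p 1.23e-07, limma). The brightest Hnrnpa2b1 probe set, 1420365_a_at, gave -0.13 for the same contrast, which missed the threshold at adjusted p 0.17. Hnrnpab, a relative of Hnrnpd, was lower in brain than in liver by at least 1 on 3 of 5 tested probe sets, among them 1453849_s_at with -1.10 ± 0.10, and 1448144_at was lower by less (-0.65 ± 0.11, adjusted p 8.59e-06, limma). Hnrnpdl, another relative, was called higher in brain than in liver on 3 of 7 probe sets, with medians for 1428224_at of 760.9 in brain, 412 in kidney and 264.85 in liver (difference 1.50 ± 0.13).

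Among the other hnRNPs, Hnrnpf, which binds G-rich runs near exons, had 3 of its 4 probe sets called lower in brain than in liver and the remaining one at -0.89. Its 1450963_at had a signal of 473.8 to 857.9 in brain (median 650.8), against 1310 to 2378.6 in kidney (median 1855.4) and 1514 to 2694.6 in liver (median 2038.4). All brain samples lay below all samples of the other tissues, and brain was 3.06-fold lower than liver (log2 -1.61 ± 0.10, adjusted p 1.63e-13, limma). Its 1423382_a_at was 3.11-fold lower in brain than in kidney (log2 -1.64 ± 0.08), and its 1437099_x_at was 2.96-fold lower in brain than in liver (log2 -1.57 ± 0.26). The last fold averages over brain values of 926.2 to 5895.3, against 7831.7 to 10033.1 in liver. Yellow, slightly mottled and pseudoagouti mice numbered 1 had the lowest brain values. Hnrnpr, an hnRNP close in sequence to Syncrip, was higher in brain on 1429232_at, with 205.7 to 370.1 in brain, against 57.5 to 159.9 in kidney and 26.7 to 84.1 in liver (brain minus liver 1.99 ± 0.15). That probe set passed the filter only through brain. The brighter Hnrnpr 1427129_a_at had 2396.4 to 2890 in brain, 2264.2 to 2959.3 in kidney and 1013.7 to 1854.4 in liver. Hnrnph3, of the hnRNP H family, was the member with the largest kidney excess: 1008.4 to 1820.7 in kidney (median 1323.4), against 371.9 to 691.3 in liver (median 475.5), a difference of 1.48 ± 0.12 (adjusted p 5.23e-11, limma).

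Among SR proteins 2 of 31 probe sets were called higher in brain than in liver and 0 lower, and the median brain minus liver difference of the class was -0.24. Srsf12, a short SR-related protein also called SRrp35, passed the filter only through brain. Its signal was 344.4 to 678.8 in brain (median 576.85), against 1.2 to 31.8 in kidney (median 14.55) and 3.6 to 51.8 in liver (median 18.2). Brain did not overlap the other tissues, and the fitted log2 difference was 4.28 against kidney and 4.06 against liver. Kidney and liver signals were near the offset of 16, so no fold is drawn from them. The other SR protein called was Srsf3 on 1416152_a_at, at 1.13 ± 0.15 for brain minus liver.

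The SF3A and SF3B subunits, general parts of the U2 particle, had 2 of 23 probe sets called higher in brain than in liver and 0 lower. Sf3b1, the largest SF3B subunit, had 816.2 to 1756.4 in brain (median 1259.5) on 1418561_at, against 310.6 to 686 in kidney (median 487.1) and 288.8 to 610.1 in liver (median 328.4). Brain did not overlap either tissue, and the difference was 1.75 ± 0.12 against liver (adjusted p 9.22e-13, limma) and 1.33 ± 0.12 against kidney. The brightest Sf3b1 probe set, 1449138_at, had medians of 3300.6 in brain, 4154.6 in kidney and 3435.8 in liver and a brain minus liver difference of -0.02 ± 0.06. Sf3a1 was higher in brain than in liver on 1419087_s_at (1.13 ± 0.15), with medians of 266.7 in brain and 121.35 in liver, and this probe set passed the filter only through brain. The brighter Sf3a1 1449333_at was not called, with 614 to 983.7 in brain and 435 to 715.5 in liver. The DBHS protein Sfpq, a paraspeckle component, had 2297.4 to 3361 in brain, 1749.1 to 3487.3 in kidney and 802.4 to 1397.9 in liver on 1436898_at, so that liver lay below both (brain minus liver 1.26 ± 0.11, kidney minus liver 1.04 ± 0.11). Syncrip, also named hnRNP Q, was higher in brain than in kidney on 1422768_at: 614.1 to 908.4 in brain, against 276 to 490.3 in kidney, a difference of 1.08 ± 0.10.

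The wider splicing machinery was read from gene lists with 1 probe set per gene, its brightest. Over all tested probe sets 30.2% were called higher and 20.4% lower in brain than in liver. Those shares include every tested probe set of a gene, so they are not on the same footing as the lists. The share over the brightest probe set of each gene was not counted. Of 18 tested core snRNP genes, 0 were higher and 2 lower in brain than in liver, Lsm2 (-1.96) and Snrpe (-1.15), and Snrpb was lower in brain than in kidney (-1.07). Of 25 tri-snRNP and catalytic genes, Cd2bp2 was higher (1.12) and Dhx16 lower (-1.05) in brain than in liver. Of 8 branch point genes, Phf5a was lower (-1.02), and neither of 2 exon junction genes was called in a contrast. Of 22 SR-related proteins and SR kinases, 4 were higher in brain than in liver, with the SR protein kinases Srpk2 (3.40) and Srpk3 (1.85) and the U1-associated Luc7l (1.83) the most, and 0 were lower. Of 33 tissue-restricted splicing regulators, 20 were higher and 6 lower in brain than in liver, led by Celf5 (7.50), Celf4 (6.93) and Rbfox1 (6.62), which are neuronal RNA-binding proteins, and the median of the 33 was 1.78. Celf5, Celf4 and Rbfox1 passed the filter through brain alone, and no fold is drawn from them. Their mean log2 in kidney and liver was 5.20 to 6.67, under the filter of 8.01. Of the same list Nova1, Celf6, Elavl2, Elavl3, Elavl4, Srrm3, Srrm4, Khdrbs2 and Rbm24 also passed through brain alone, as did Srpk3 among the SR kinases. For such genes the filter itself favoured a call higher in brain. The 20 of 33 and the median of 1.78 therefore follow in part from the filter. Among 6 paraspeckle and FET genes 3 were higher and 1 lower in brain than in liver: Pspc1 by 1.37, Malat1 by 1.24 and Matr3 by 1.02, while Neat1, the RNA scaffold of paraspeckles, was lower by a log2 difference of -3.46 against liver and -4.80 against kidney. The single cold-inducible gene tested, Cirbp, was higher in brain than in liver (1.31).

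The spread between mice was set against the spread between tissues by a ratio, R. Its numerator is the SD of the 10 mice within a tissue, averaged over tissues, and its denominator is the SD of the 3 tissues within a mouse, averaged over mice. The series text names an R-value above 1.5 with no formula, so the formula is a choice, and R carries no test. Of the 119 members, 8 had R above 1.5, or 6.72%, where 0.662% of all tested probe sets did, and 29 had R above 1, or 24.4%, where 9.25% of all did. With the SD of means in place of the mean of SDs, 23 members were above 1.5, or 19.3%, against 4.74% of all. Median R was 0.787 in members and 0.423 over all. The larger R of members went with their smaller tissue spread: the median SD between tissues was 0.350 in members and 0.746 over all, while the median SD between mice was 0.270 and 0.324. Members also had brighter probe sets, with a median mean log2 signal of 10.39 against 8.91 over all; its part in the spread was not tested. By class the median R was 0.505 for hnRNPs A to D, 0.692 for other hnRNPs, 0.823 for SR proteins, 0.862 for Syncrip, Sfpq and Snrnp200 and 0.924 for SF3A and SF3B, and the last 2 groups held 6 of the 8 probe sets above 1.5.

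**Figure D2:**
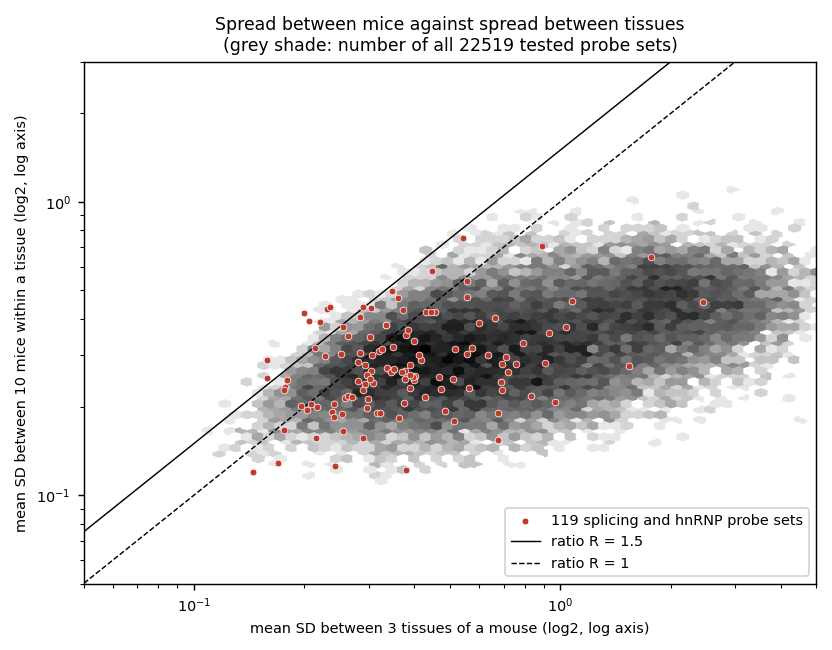
Mean SD between 10 mice within a tissue (vertical, log axis, log2 units) against mean SD between 3 tissues of a mouse (horizontal, log axis, log2 units), with the 119 members in red over all 22519 tested probe sets in grey and lines at R of 1.5 and 1. The members lie mostly left of the grey mass, at small tissue spreads, and 8 lie above the R = 1.5 line.

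Hnrnpul1, an hnRNP U relative that binds RNA and takes part in DNA repair, had the highest ratio, 2.09 on 1451984_at, ranked 2 of all tested probe sets. Its signal ranged over 1690.4 to 3901.9 in brain (median 3243), 1893.4 to 4879.5 in kidney (median 3765.6) and 2261.5 to 3859.8 in liver (median 2800.8). The 3 tissues overlapped, and the highest and lowest mouse differed 1.94-fold on the mean of their tissues (limma's moderated F-test on 9 mouse coefficients, adjusted p 0.00221). Syncrip followed on 1422769_at with R of 1.90 and a range between mice of 2.23-fold, then Sf3a3, a subunit of SF3A, on 1432488_a_at with R of 1.87 and 2.59-fold, and Sfpq on 1423795_at with R of 1.87 and 2.61-fold. Sfpq had 1543.5 to 3458.3 in brain, 1169.4 to 3974.7 in kidney and 1376.9 to 3673.9 in liver on this probe set. The mice were ordered alike in Syncrip and Sf3a3 at both ends: slightly mottled mouse 1 was highest, with a mean log2 of 9.13 in Syncrip and 9.21 in Sf3a3, and pseudoagouti mouse 2 lowest, with 7.97 and 7.84. In Sfpq slightly mottled mouse 2 was highest at 11.86 and heavily mottled mouse 1 lowest at 10.47. Snrnp200 reached 1.82 on 1454772_at, Hnrnpr 1.76 on 1437526_x_at, Sf3b4 1.59 on 1436784_x_at and Sf3a2 1.51 on 1450576_a_at. After quantile normalisation R was 1.35 for that Sf3a3 probe set, 1.16 for Snrnp200, 1.27 for Hnrnpr and 1.24 for Sf3b4, so these 4 depend on the scaling, and the ratio was 1.253 for Sf3a2 and 1.45 for Sf3b4 without pseudoagouti mouse 2. For Sf3a2 it was also under 1.5 without yellow mouse 2 (1.37), mottled mouse 2 (1.40) or heavily mottled mouse 1 (1.46), and for Sf3b4 without pseudoagouti mouse 1 (1.47). The 2 probe sets next below 1.5 were of Sf3b2, with 1.48 on 1456040_at and 1.47 on 1438637_x_at.

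The ratio varied between probe sets of 1 gene. The Sfpq probe set 1436898_at had R of 0.33 where 1423795_at had 1.87, Snrnp200 had 0.76 on 1460552_at and 1.82 on 1454772_at, and Sf3a2 had 0.73 on 1455546_s_at and 1.51 on 1450576_a_at. Hnrnpr ran between 0.35 on 1427129_a_at and 1.76 on 1437526_x_at. At the low end stood the probe sets with large tissue differences, Hnrnpd 1457568_at with 0.18, Srsf12 1437168_at with 0.19 and Hnrnpa2b1 1433829_a_at with 0.21.

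The mouse F-test called 13 of 119 members, or 10.9%, against 6.8% of all tested probe sets. They were Hnrnpul1, Hnrnpll and Hnrnpr among hnRNPs, Srsf3, Srsf5 and Srsf10 among SR proteins, Sf3a2, Sf3a3 and Sf3b6 among SF3 subunits, and Sfpq and Syncrip with 2 probe sets each. The smallest adjusted p after Hnrnpul1 were 0.00712 for Sfpq 1423795_at, 0.00759 for Srsf5 1423130_a_at, 0.0105 for Sf3a2 1450576_a_at, 0.011 for Syncrip 1422769_at and 0.0122 for Hnrnpr 1437526_x_at. Sf3a3 1432488_a_at (0.0142) lost the call without pseudoagouti mouse 2 (adjusted p 0.0708), Syncrip 1422769_at without slightly mottled mouse 1 (0.061), and Hnrnpll 1427144_at (0.0144) without mottled mouse 2 (0.0709). The count was 21 without mottled mouse 1 and 20 without heavily mottled mouse 1, and the shares over all probe sets were not counted there. With the mouse number as a block within each tissue, 1 member stayed called, Sf3a2 1450576_a_at (adjusted p 0.0411), against 0.417% of all, and 5 members had R above 1.5 where 0.36% of all did, those of Sf3a3, Sf3a2, Sfpq and Syncrip above and Sf3b2 1456040_at. For Sf3a2, a subunit of SF3A, pseudoagouti mouse 2 stood highest at a mean log2 of 9.46 and yellow mouse 2 next at 9.35, with heavily mottled mouse 1 lowest at 8.23.

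**Figure D3:**
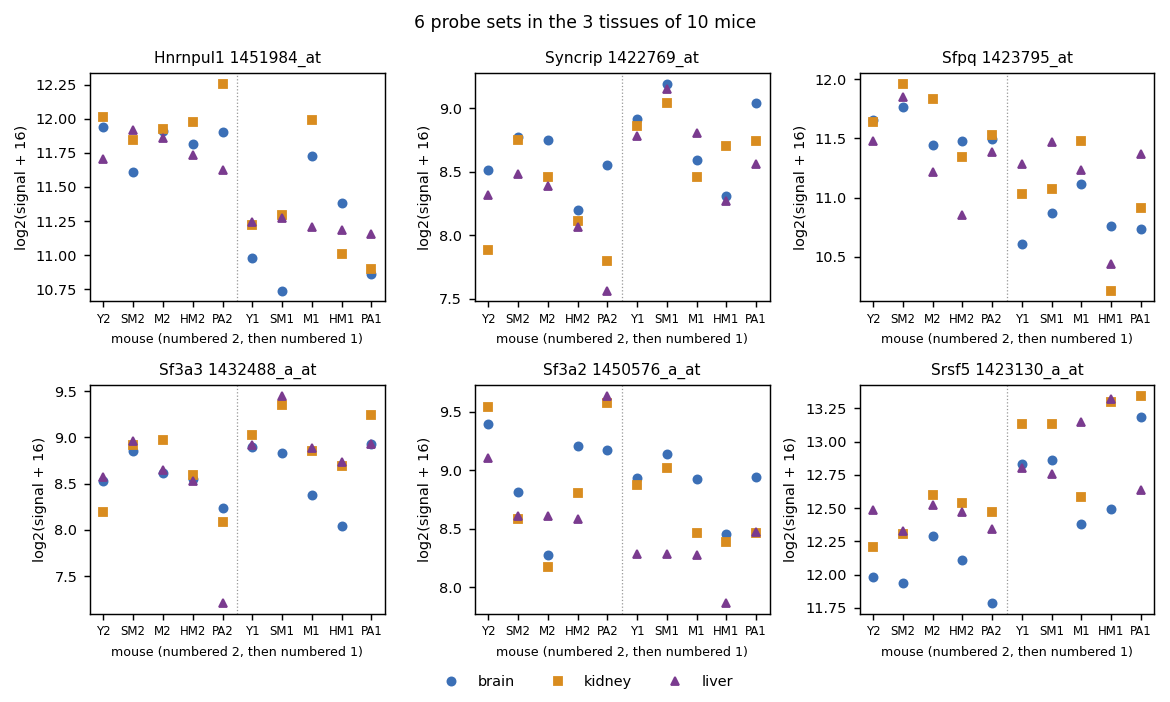
Value of log2(signal + 16) in brain (circles), kidney (squares) and liver (triangles) of each mouse for 6 probe sets, with the 5 mice numbered 2 left of the 5 numbered 1 (Y yellow, SM slightly mottled, M mottled, HM heavily mottled, PA pseudoagouti). In Hnrnpul1 and Srsf5 the mouse means of the 2 numbers do not overlap, while in Sf3a2 they overlap and the number difference of 0.36 was not called (adjusted p 0.223, limma).

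Since removing the number took away most calls, mice numbered 2 were compared with mice numbered 1, 5 against 5, on each mouse's mean of 3 tissues. Of the 119 members 18 were higher in mice numbered 2 and 8 lower, where 7.78% and 6.31% of all tested probe sets were called, and together that is 21.8% of members against 14.1% of all. With no filter on low signal 11 were higher and 4 lower, against 2.92% and 2.63% of all. Other hnRNPs supplied 9 of the 18 and the group of Syncrip, Sfpq and Snrnp200 4. Hnrnpul1 had a mean log2 of 11.89, 11.79, 11.90, 11.84 and 11.93 in mice numbered 2 and of 11.15, 11.10, 11.64, 11.19 and 10.97 in mice numbered 1, in the order yellow to pseudoagouti. The numbers did not overlap, with mottled mouse 1 nearest to the others, and mice numbered 2 were 1.58-fold higher (log2 0.66 ± 0.11 SE, adjusted p 0.00472, limma). Srsf5, an SR protein that binds exonic enhancers, had 12.23, 12.19, 12.47, 12.37 and 12.20 in mice numbered 2 and 12.92, 12.92, 12.70, 13.04 and 13.06 in mice numbered 1. They did not overlap either, and mice numbered 2 were 1.55-fold lower (log2 -0.64 ± 0.09, adjusted p 0.00307, limma), with -0.73 in brain, -0.67 in kidney and -0.50 in liver. Those single-tissue differences passed the test with all mice in, but with 1 mouse left out at a time the call held in 2 of 10 fits in brain, 3 of 10 in kidney and 5 of 10 in liver, where the mean of tissues was called in 10 of 10.

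The next members higher in mice numbered 2 were Srsf10 1449121_at, a splicing repressor when dephosphorylated (0.53 ± 0.09), Sf3b2 1438637_x_at (0.48 ± 0.09), Hnrnpr 1437526_x_at (0.55 ± 0.12), Hnrnpk 1454692_x_at, a poly(C)-binding hnRNP (0.45 ± 0.10), and Sf3b4 1436784_x_at (0.36 ± 0.08). Mouse means of the 2 numbers overlapped for Hnrnpr and not for the other 4. Members named here, Hnrnpul1 and Srsf5 among them, were picked by p in this contrast, so overlap only describes them. Its share over all probe sets was not counted. Of the other tested probe sets of Srsf10, Sf3b2, Hnrnpr, Hnrnpk and Sf3b4, only Srsf10 1418526_at passed (0.34, adjusted p 0.0357, limma). Srsf10 1418527_a_at gave -0.25 and Sf3b4 1424619_at 0.07. The others gave -0.14 to 0.05 in Sf3b2, -0.30 to 0.14 in Hnrnpr and 0.08 to 0.18 in Hnrnpk. The remaining 12 members called higher lay between 0.32 and 0.88. Lower were Srsf1 1452430_s_at, the SR protein ASF/SF2 (-0.53 ± 0.12), Srsf2 1415807_s_at, also called SC35 (-0.41 ± 0.10), Sf3b5 1451185_at (-0.52 ± 0.13), Sf3a3 1423811_at (-0.34 ± 0.10) and Hnrnpab 1453849_s_at (-0.35 ± 0.11), and in each of these 5 the mouse means overlapped. Leaving out slightly mottled mouse 1 ended the calls of Srsf2, Sf3b5, Sf3a3 and Hnrnpab, which had adjusted p of 0.055 to 0.113 without it; yellow mouse 1 or pseudoagouti mouse 1 ended those of Sf3b5, Sf3a3 and Hnrnpab, and 5 further single mice those of Sf3a3 and 4 those of Hnrnpab. Other probe sets of these genes did not pass: Srsf1 1434972_x_at, the brightest of 6, gave -0.14, and Sf3b5 1437972_s_at gave -0.09. In single tissues 2 members were higher and 1 lower in brain (1.22% and 0.75% of all), 7 and 4 in kidney (3.86% and 3.46%) and 9 and 7 in liver (4.72% and 5.13%). With 1 mouse left out at a time, 7 of 10 fits called 0 higher and 8 of 10 called 0 lower in brain, 7 of 10 called 0 in either direction in kidney, and liver gave 5 to 11 higher and 3 to 6 lower. Without mottled mouse 1 there were 12 higher and 3 lower in brain and 19 and 17 in kidney. With no filter there were 1 and 0 in brain and 0 and 0 in kidney. For these fits, with a mouse left out or no filter, the shares over all probe sets were not counted. The counts therefore do not tell members from the array as a whole. With all mice and the filter, 3 members were called in either direction in brain, 11 in kidney and 16 in liver. Of all tested probe sets 1.97%, 7.33% and 9.85% were called. The number difference itself differed between tissues for 7 members (4.94% of all).

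Array measures differed between the numbers in some tissues. The highest signal on an array was 16761 to 24161 in brain of mice numbered 2 and 20060 to 37230 in brain of mice numbered 1, and 19007 to 25922 and 22991 to 45410 in kidney. In liver it was 34084 to 50092 in mice numbered 2 and 39228 to 47341 in mice numbered 1. The ratio of the 3′ to the 5′ Gapdh control probe set in liver was 0.748 to 0.888 in mice numbered 2 and 0.707 to 0.754 in mice numbered 1. In the same order it was 0.783 to 0.814 and 0.722 to 0.819 in brain, and 0.789 to 1.01 and 0.759 to 0.814 in kidney. Its ranges in the 2 numbers overlapped in each of the 3 tissues, in liver only at their ends. With the log2 highest signal as a covariate, 0 members were called for number and 0% of all tested probe sets (5 members at an unadjusted p under 0.05, limma), and with the Gapdh ratio 0 and 0% (18 members at an unadjusted p under 0.05). All 26 called members kept their sign in both fits, with a median size of 0.27 with the highest signal and 0.39 with the Gapdh ratio, against 0.43 without a covariate. These 26 were picked by p in the same contrast on the same mice, so the kept sign only describes them. Its share over all called probe sets was not counted. Hnrnpul1 gave 0.32 ± 0.13 with the highest signal and 0.55 ± 0.17 with the Gapdh ratio, and Srsf5 gave -0.35 ± 0.10 and -0.53 ± 0.13. The mouse F-test called 3 members with the highest signal (0.919% of all) and 1 with the Gapdh ratio (0.48% of all). The labels do not say whether the number marks a batch, which was not tested. Of the marker lists, 2 of 6 kidney genes were lower in kidney of mice numbered 2, and 1 neuron gene in kidney and 1 choroid plexus gene in liver were higher; their part in the member differences was not tested. The counts also rested on single mice: without slightly mottled mouse 1 there were 7 higher and 2 lower, and without mottled mouse 1 there were 23 and 13. Without yellow mouse 1 there were 9 higher and 3 lower, without pseudoagouti mouse 1 8 and 3, without pseudoagouti mouse 2 8 and 4, and without slightly mottled mouse 2 9 higher. Without heavily mottled mouse 1 there were 10 higher, without mottled mouse 2 11 higher, and without heavily mottled mouse 2 5 lower. Shares over all probe sets were not counted with a mouse left out.

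The name of a probe set also went with the number difference, which was seen after these results were known and is a description. In Affymetrix names _x_at marks probes that can match other transcripts, _s_at probes shared by several transcripts, and _a_at probes common to variants of 1 gene. Of 14 member probe sets named _x_at, 9 were higher in mice numbered 2 and 0 lower, against 13.9% and 6.98% of all tested probe sets of that kind. Of 17 named _s_at 0 were higher and 4 lower (10.3% and 8.17% of all such probe sets), of 25 named _a_at 0 and 2 (5.34% and 12.9%), and of 63 with no letter 9 and 2 (7.45% and 4.7%). Of the 174 pairs of tested probe sets of 1 member gene, 36 differed in their number difference, or 20.7%, against 17.9% of all pairs. Of these 36, 9 paired an _x_at with another kind, as did 42 of all 174 member pairs. In all 9 the _x_at probe set was the more positive, which repeats the counts by name on the same values and is no separate result.

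**Figure D4:**
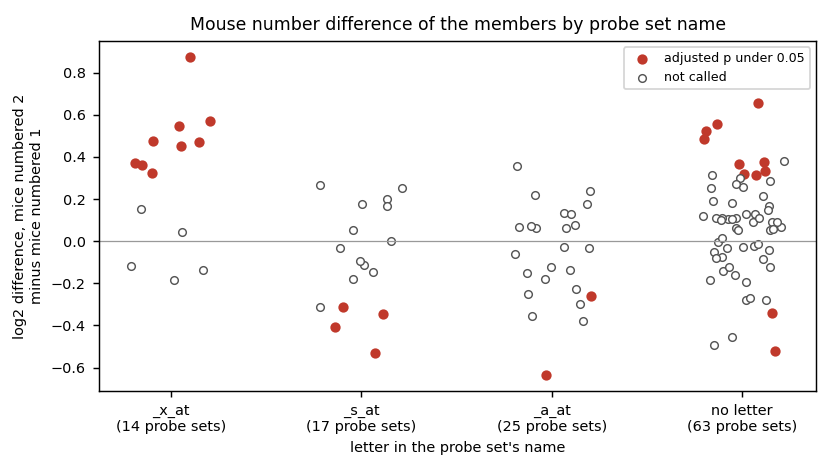
Log2 difference between mice numbered 2 and mice numbered 1, on the mean of 3 tissues, for each of the 119 members, split by the letter in the probe set's name (horizontal spread within a column is random). Red points passed an adjusted p of 0.05; the 9 red points among _x_at names are all above 0 and the red points among _s_at and _a_at names all below it.

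Probe sets of 1 gene moved in opposite ways between tissues in 12 of the 30 member genes with at least 2 tested probe sets, or 40%, against 16.9% of 5096 such genes on the array. A pair was called opposite where both probe sets passed an adjusted p of 0.05 with opposite signs and limma's test of their difference passed too, over 12766 pairs. That held for 37 of 174 member pairs in at least 1 tissue contrast, or 21.3%, against 12.4% of all pairs. By contrast it held for 20 pairs in brain against liver (6.97% of all pairs), 11 in brain against kidney (5.08%) and 17 in kidney against liver (4.89%). The 30 member genes held 174 pairs, more per gene than the 5096 genes with their 12766, so the shares of genes are not on the same footing. The 12 genes were Hnrnpc, Hnrnpf, Hnrnpll, Hnrnpu, Hnrnpul2, Srsf3, Srsf6, Srsf10, Sf3a2, Sf3b1, Sfpq and Syncrip, with 8 pairs in Srsf3 and 7 in Hnrnpu. With a change of at least 0.5 asked of both probe sets 7 member pairs were left, or 4.02%, against 5.62% of all pairs, so the members' share was then below that of the array. With shared-sequence names left out there were 16 of 42 member pairs, or 38.1%, against 13.8% of all such pairs.

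The largest opposite pair was in Sf3b1, whose 1418561_at was higher in brain than in liver (1.75) while 1440818_s_at was lower (-0.46 ± 0.12). The lower of these had a signal of 1428.9 to 2177.7 in brain (median 1686), against 1951.5 to 3465.7 in kidney (median 2601.5) and 1545.9 to 3740.1 in liver (median 2497). The pair differed by 2.21 ± 0.20 between brain and liver (adjusted p 1.2e-09, limma) and by 1.97 ± 0.20 between brain and kidney. Against kidney 1418561_at was also opposite to 1449138_at (-0.23) and 1418562_at (-0.21).

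Srsf3, the smallest SR protein, whose transcript can include an exon that sends it to decay, split into 2 groups. Probe sets 1416152_a_at (1.13), 1416151_at (0.93), 1434512_x_at (0.76) and 1454993_a_at (0.46) were higher in brain than in liver, and 1416150_a_at (-0.43) and 1438215_at (-0.37) lower. Of these lower ones 1416150_a_at had 1370.6 to 3326.2 in brain (median 1876.6), against 1865.3 to 5281.4 in kidney (median 3744.2) and 1578.6 to 4280.6 in liver (median 2677.2). In contrast 1416152_a_at had 1389.2 to 2603.8 in brain (median 2125.2), against 757.2 to 1968.1 in kidney (median 1332.1) and 488 to 1577.7 in liver (median 855.95). Their difference was 1.55 ± 0.18 between brain and liver (adjusted p 8.9e-08, limma), and all 8 pairs across the 2 groups were called opposite. Both groups were higher in kidney than in liver. Which transcripts these probe sets read, in Srsf3 or the other genes with opposite pairs, was not looked up. Whether the decay exon has a part in the split was not tested.

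Syncrip had 4 opposite pairs. Its 1422768_at was higher in brain than in kidney (1.08) and its brightest, 1426402_at, lower (-0.64 ± 0.09), with 659.1 to 1133.6 in brain, against 1040 to 1768 in kidney and 694.9 to 1576.8 in liver. That pair was opposite in all 3 contrasts and differed by 1.72 ± 0.09 between brain and kidney (adjusted p 1.4e-13, limma). Hnrnpu, which binds nuclear scaffold DNA and RNA, had 1423051_at lower in brain than in liver (-0.74 ± 0.09) and 1434390_at higher (0.52 ± 0.15). The first had 2349.4 to 4013.9 in brain and 4219.3 to 5969.6 in liver, with no overlap, and the second 357.5 to 886.5 in brain and 258.4 to 577.6 in liver, with overlap. Sfpq 1439058_at was lower in kidney than in liver (-0.31 ± 0.14) where 1436898_at was higher (1.04), the weaker side at adjusted p 0.0469. Hnrnpul2, a paralog of Hnrnpul1, was higher in brain than in kidney on 1434551_at (0.71 ± 0.08) and lower on 1415765_at (-0.50 ± 0.10).

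**Figure D5:**
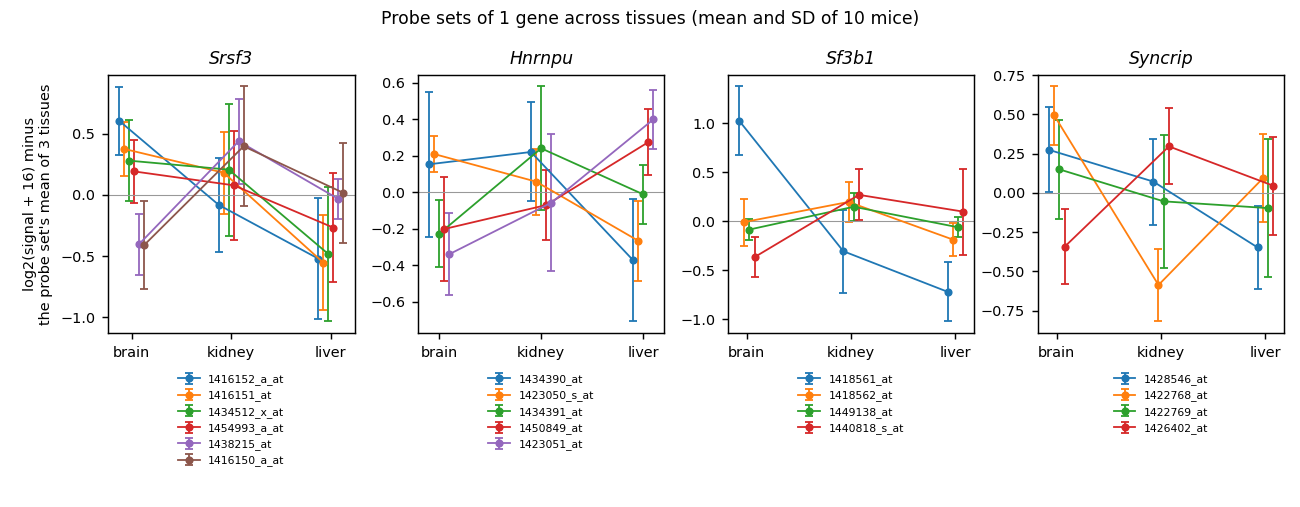
Mean of log2(signal + 16) in brain, kidney and liver, less each probe set's own mean of 3 tissues, for every tested probe set of Srsf3, Hnrnpu, Sf3b1 and Syncrip; bars are the SD of 10 mice. Lines that cross are probe sets of 1 gene that run in opposite directions, such as Srsf3 1416152_a_at and 1416150_a_at between brain and liver.

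Hnrnpf was opposite in 2 ways. In kidney against liver 1423382_a_at was higher (0.74 ± 0.08), with 1725 to 2475 in kidney and 951.8 to 1588.6 in liver, while 1437099_x_at was lower (-0.88 ± 0.26), and 1456664_x_at as well (-0.28 ± 0.11). By mouse number 1423382_a_at was lower in mice numbered 2 (-0.26 ± 0.08) and 1437099_x_at (0.88 ± 0.22) and 1456664_x_at (0.33 ± 0.10) higher, the only 2 member pairs opposite by number, or 1.15%, against 0.728% of all pairs. In brain 1437099_x_at had 3079.4, 5895.3, 5148.7, 3914.4 and 5580.2 in mice numbered 2 and 926.2, 1118.5, 5383.2, 5431.8 and 1240.7 in mice numbered 1, in the order yellow to pseudoagouti. The yellow, slightly mottled and pseudoagouti mice numbered 1 were far below all others, and the mottled and heavily mottled ones were not. In liver the same probe set ran over 8775.2 to 10033.1 in mice numbered 2 and 7831.7 to 9985.4 in mice numbered 1. After quantile normalisation 0 such pairs were called, and 0 when yellow, slightly mottled, heavily mottled or pseudoagouti mouse 1 or slightly mottled, heavily mottled or pseudoagouti mouse 2 was left out; there were 4 without yellow mouse 2 and 1 without mottled mouse 2.

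No member passed the test on coat class. Slopes per step of coat class, yellow as 0 to pseudoagouti as 4, called 0 of 119 on the mean of tissues and in brain, kidney and liver (0.00444%, 0%, 0.00444% and 0% of all, limma). At an unadjusted p under 0.05 there were 0, 1, 0 and 4 members (1.9%, 1.45%, 2.06% and 2.38% of all). The slopes differed between tissues for 0 members and 0% of all, and for 4 members at an unadjusted p under 0.05 (2.42% of all). The smallest unadjusted p were of Srsf1 1453722_s_at in liver, with a slope of -0.17 ± 0.05 and an adjusted p of 0.9998, and Srsf3 1416152_a_at in liver, with -0.20 ± 0.08. In brain the smallest was Hnrnpdl 1428224_at at 0.16 ± 0.07, and on the mean of tissues Hnrnpu 1434390_at at 0.07 ± 0.04. The design holds 2 mice per class.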

How the data were processed

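Per the labels' protocols RNA was isolated from frozen tissue and 6 µg of total RNA was made into biotinylated cRNA. The deposited values are linear signal intensity per probe set from MAS5, per the submitters' processing notes (version not given in the sources used here), with no detection calls. In every array the mean signal without 2% at each end was 500. Of 45101 probe sets, 64 controls were left out. Of the rest, 34945 carried 1 gene symbol in the platform annotation, 932 several and 9160 none.

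Values were log2(signal + 16). A probe set was tested if its highest tissue mean reached a signal of 242, the median of that quantity. Tests used limma 3.58.1 in R 4.3.3 (trend, Benjamini-Hochberg over all tested probe sets, adjusted p under 0.05), after a check on simulated data. Tissue contrasts carried the mouse as a block, paired through the class and number in the labels. Number and coat fits used 10 mouse values. Pairs of probe sets of a gene were tested on their difference. Named were, by rule, the largest called differences per class, the highest ratios, the smallest p-values, the 12 largest opposite pairs and the most changed genes of each other list. Members and lists were chosen with earlier results of these data known. Alternatives covered the offset, filter, scaling, block, covariates, ratio formula and single mice.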

Additional observations from a re-analysis of the deposited data

Results flagged for a closer look

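Among 150 groups of 10 samples examined, 6 had 1 sample apart from the rest by Dixon's test, where chance gives about 1 in 20 groups; the value is the gap to the nearest sample over the group's range. In liver of pseudoagouti mouse 2, Sf3b1 1418561_at stood high at a signal of 610.1, against 288.8 to 398.3 in the others (0.574), and Sf3a3 1432488_a_at low at 131.7, against 352.4 to 683.2 (0.588). In kidney of the same mouse Hnrnpab 1453849_s_at was low at 1837.9, against 2543.7 to 3642.7 (0.475). Sf3b2 1456040_at was low in liver of mottled mouse 2, at 650.5 against 1032.5 to 1644.9 (0.496). Hnrnpa2b1 1433829_a_at was low in kidney of yellow mouse 1, at 4780.9 against 5729.2 to 6885.5 (0.496). Srsf10 1449121_at was low in brain of slightly mottled mouse 1, at 294.3 against 544.8 to 834.1 (0.587).

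The difference between mice numbered 2 and mice numbered 1 itself differed between tissues for 7 of 119 members, or 5.88%, where it did for 4.94% of all tested probe sets (limma's interaction F-test, adjusted p in parentheses). Srsf11 1452371_at gave -0.26 in brain, -0.25 in kidney and 0.41 in liver (0.00627), and Srsf9 1417727_at gave 0.34, 0.44 and -0.40 in the same order (0.00859). Srsf1 1452430_s_at gave -0.16, -0.18 and -1.25 (0.0135), so its lower signal in mice numbered 2 lay mostly in liver. Hnrnpdl 1449039_a_at gave 0.34, -0.30 and -0.40 (0.0217), Hnrnpa2b1 1433829_a_at -0.27, 0.10 and 0.36 (0.04), Hnrnpll 1425255_s_at -0.11, -0.40 and 0.17 (0.0482) and Hnrnpa2b1 1433830_at -0.30, 0.27 and 0.22 (0.0492).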

How the results depend on the processing

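The 22 tissue, 8 coat, 8 mouse range, 12 number and 10 R values named were recomputed under 13 settings: offsets of 1 and 64, quantile normalisation, and each of 10 mice left out. Counting each value under each setting, direction and call held in all 286 for tissue and 104 for coat, in 101 of 104 for the mouse range and in 136 of 156 for the number, the others losing the call. R kept its side of 1.5 in 114 of 130 and changed it in 16, and no signed value changed sign. The covariate and block fits below are outside that count. With no replicate block for the mouse, or with the mouse as a random block, the tissue counts were 13 and 8, 6 and 5, and 2 and 0, as with the block; with the replicate number as a block the mouse F-test called 1 member and 5 had R above 1.5, and 0 were called on coat. With no minimum difference 45 were higher and 40 lower in brain than in liver, 25 and 43 in brain than in kidney, and 46 and 23 in kidney than in liver; filtering on the mean of all arrays left 3 higher in brain than in kidney. Quantile normalisation moved the median of all probe sets by -0.20 for brain minus liver, and gave 1 higher in kidney than in liver, 5 with R above 1.5, 1 higher by number in brain and 0 pairs opposite by number. Mice numbered 2 alone gave 1 higher in kidney than in liver; mice numbered 1 alone gave 5 higher, 1 lower and 3 with R above 1.5. R from the SD of means gave 23 above 1.5, a threshold of 1 gave 29, and one midway to it 21. The highest signal as covariate left 3 members in the mouse F-test and 0 higher and 0 lower by number on the mean of tissues, in brain and in kidney. The Gapdh ratio left 1 in the F-test, 1 higher by number in brain and 0 in each other direction and tissue. Without a filter the number called 11 higher and 4 lower on the mean, 1 and 0 in brain, 0 and 0 in kidney, and 5 and 4 in liver, with 0 opposite pairs by number; with coat class as a block brain gave 0 and 0. Opposite tissue pairs numbered 16 without shared-sequence names and 7 at 0.5 or more, and by number 0 in both. Leaving out each mouse in turn gave 9 to 21 in the mouse F-test, 6 to 12 with R above 1.5, 12 to 14 higher and 8 lower in brain than in liver, 6 and 4 to 6 in brain than in kidney, and 1 to 3 and 0 in kidney than in liver. By number it gave 7 to 23 higher and 2 to 13 lower on the mean, 0 to 12 and 0 to 3 in brain, 0 to 19 and 0 to 17 in kidney, and 5 to 11 and 3 to 6 in liver, with 29 to 37 opposite tissue pairs, 0 to 4 opposite number pairs and 0 on coat. The highest brain and kidney counts came without mottled mouse 1. The cause of these moves was not tested. Shares over all probe sets were not counted with a mouse left out, after quantile normalisation or in mice of 1 number alone.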
